A study of Mus musculus with 21 samples.

Results

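The lysosome was followed here through 39 mouse genes: 8 cathepsins, 8 hydrolases of glycans and lipids, 5 proteins of lipid transfer, hydrolase cofactors and an ion channel, 5 proteins of the lysosomal membrane, 11 subunits of the vacuolar proton pump (V-ATPase) and the transcription factors Tfeb and Tfe3. They were listed by name, with no measured value in the rule but with earlier results of these data known, and found by Ensembl ID among the 23250 genes of the deposited count table. All 39 were among the 13468 genes that passed the filter on low counts. The cells were macrophages grown from bone marrow of mice on the C57BL/6J background for 7 days with GM-CSF, a growth factor for macrophages and granulocytes, and the series describes them as lacking the mannose receptor, so untreated and treated groups share that deficiency. The 7 groups of 3 libraries were untreated cells of 0 h, cells given the isotype control for 4, 12 or 24 h, and cells given FcMR, in which the outer domains of the mannose receptor are joined to the Fc of human IgG1, for 4, 12 or 24 h. The study asked what a soluble mannose receptor does to macrophages. As untreated cells were taken at 0 h only, the control protein and the time in culture cannot be told apart. No label says whether the 3 libraries of a group came from separate mice or cultures, so p-values measure the spread between these libraries, which may be technical.

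Lysosomal hydrolases are made in the endoplasmic reticulum, tagged with mannose 6-phosphate, sorted to endosomes by receptors for that tag, and work in the acid that the V-ATPase makes by pumping protons. The pump has a membrane sector, V0, through which protons pass, and a cytosolic sector, V1, which splits ATP, and many subunits exist in several forms. Macrophages hold many lysosomes, which digest what the cells take up, and the factors TFEB and TFE3 can switch on lysosomal genes through promoter elements with the core CACGTG, known as CLEAR elements. The mannose receptor itself is known as a clearance receptor for secreted hydrolases that carry mannose.

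Library totals ran from 5532225 to 66729533 counts, and no member had fewer than 18 counts in any library, the lowest being of Tfeb. Mrc1, which encodes the mannose receptor, had 0 to 11 counts per library. Markers of macrophages were high in all groups, led by Lyz2, with group means from 17926 to 28184 CPM (counts scaled to library size, with TMM factors). Genes of dendritic cells were present too, with 6 of them summing to 2013 to 3792 CPM over all libraries and to 3456 to 3792 CPM in untreated ones. Genes of alveolar-type macrophages summed to 1150 to 3382 CPM and those of osteoclasts and giant cells to 420 to 1251 CPM. The summed level of 5 lymphocyte genes, of which 4 were in the table, stayed between 0.881 and 4.58 CPM, and that of 4 stromal genes between 2.14 and 11.1 CPM. Neutrophil and progenitor genes were lower at 24 h than at 0 h, summing to 1052 to 1241 CPM in untreated libraries and to 147 to 203 CPM over all 6 libraries of 24 h. With isotype at 24 h, 7 of 7 were lower than in untreated cells by edgeR. Control protein and time in culture cannot be told apart here either. In bulk RNA, fewer cells of a type and less RNA per cell cannot be told apart. Libraries of 1 group also differed in how well GC-rich genes were represented, given as a GC tilt, which is the difference in mean log2 level between genes with a GC content of 57.7% or more and those with 42.1% or less (10% of genes each). The tilt was −0.823, −1.67 and 0.61 in the isotype libraries of 4 h, −0.716, 0.773 and 0.849 in the FcMR libraries of 12 h and −0.381, −1.35 and 0.397 in the FcMR libraries of 24 h, and spanned at most 0.765 in the other 4 groups. The libraries of isotype 4 h replicate 3 and FcMR 12 h replicate 1 also stand in each other's place in the numbering of the titles.

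Promoters of 3 genes are shown because these genes were among those lowered by FcMR and their windows differ in motif content. The windows run from 250 bases before to 50 bases after a RefSeq start of the gene (build GRCm38.p6) and are written 5′ to 3′ on the strand of the gene, with CACGTG and TGANTCA in capitals. TGANTCA includes the classic AP-1 site, which has C or G in the middle. The window of Gla, which encodes alpha-galactosidase A, lies at chrX:134600956-134601255 (minus strand), that of Ctsl, the protease cathepsin L, at chr13:64370471-64370770 (minus strand), and that of Atp6v0a1, a membrane subunit of the proton pump, at chr11:101010148-101010447 (plus strand). RefSeq starts can differ from the gene's outer end in the GENCODE annotation used for positions elsewhere, and those of Gla, Ctsl and Atp6v0a1 lie 120, 370 and 946 bases inside it.
Gla: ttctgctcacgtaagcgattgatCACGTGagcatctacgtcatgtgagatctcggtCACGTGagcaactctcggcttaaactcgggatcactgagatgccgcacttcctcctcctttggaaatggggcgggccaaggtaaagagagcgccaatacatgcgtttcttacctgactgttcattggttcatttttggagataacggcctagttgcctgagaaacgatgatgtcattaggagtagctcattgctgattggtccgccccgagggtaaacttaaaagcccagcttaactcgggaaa
Ctsl: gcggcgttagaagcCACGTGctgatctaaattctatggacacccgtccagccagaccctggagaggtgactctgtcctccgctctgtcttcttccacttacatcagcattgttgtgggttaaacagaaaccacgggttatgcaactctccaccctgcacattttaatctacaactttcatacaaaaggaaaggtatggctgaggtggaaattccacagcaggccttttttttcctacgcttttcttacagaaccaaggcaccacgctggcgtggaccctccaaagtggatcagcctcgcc
Atp6v0a1: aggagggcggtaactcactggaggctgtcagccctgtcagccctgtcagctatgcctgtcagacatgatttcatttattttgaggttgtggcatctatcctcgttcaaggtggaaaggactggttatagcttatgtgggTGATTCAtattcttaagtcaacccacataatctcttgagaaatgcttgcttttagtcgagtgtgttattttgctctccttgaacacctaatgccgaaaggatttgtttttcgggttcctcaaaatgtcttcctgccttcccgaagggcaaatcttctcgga
The Gla window holds CACGTG at −227 and −194 from the start, both times inside the longer palindrome TCACGTGA, the Ctsl window holds 1 CACGTG at −236, and the Atp6v0a1 window holds no CACGTG but 1 TGANTCA at −111, with T in the middle and so not the classic AP-1 site. Of the 39 members, 32 had an entry, and 11 of these (34.4%) held CACGTG, against 8.09% of 27025 genes with windows of the same length, and 5 members have more than 1 window, of which any could hold the motif. TCACGTGA, which contains CACGTG, was in 6 of 32 members (18.8%) against 1.12% of genes. TGANTCA was in 6 of 32 members against 8.97% of genes, with C or G in the middle in 4 of them (Cd68, Glb1, Neu1 and Psap), and overlaps a CACGTG in Glb1. One form of the kappa B motif, bound by NF-kB, was in 0 of 32 members against 0.174%. Both strands were searched. Lamp1, which encodes a main protein of the lysosomal membrane, held 4 copies of CACGTG, at −61, −45, −28 and −15, and Ctsa, which encodes cathepsin A, held 2, at −12 and 6. Atp6v0b, Ctsd and Mcoln1 held 2 each, and Atp6v0d1, Atp6v1a, Gaa and Glb1 held 1. No window was found for Ctsb, Ctsh, Npc1, Atp6v0d2, Atp6v1b2, Atp6v1c1 and Atp6v1h.

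In untreated cells the members spanned a wide range of levels, compared here per kilobase of the longest coding transcript. That length was 6168 bases for Ctsl, 4743 for Ctsb and 1109 for Cd63. Which transcripts the cells used was not tested, so the order of the members depends on this choice. Psap, the precursor of the saposins that help enzymes reach their lipids, was highest at 5271 ± 262 CPM per kb (SD, n = 3), followed by Ctsd, the aspartic protease cathepsin D, at 2371 ± 33, and Ctsb, the cysteine protease cathepsin B, at 780.4 ± 56.3. Psap and Ctsd stood apart from the next gene by far more than their spread, while Ctsb, the tetraspanin gene Cd63 (726 ± 10.6), the carboxypeptidase gene Ctsz (702 ± 71.1) and Atp6v0c (663 ± 143), the proton-carrying ring subunit of the pump, lay within reach of each other's SD. Lowest were Mcoln1, a lysosomal calcium channel gene (17.3 ± 1.15), Tfeb (12 ± 6.04) and Gaa, the glucosidase that degrades glycogen (8.74 ± 2.04). Within the pump the level ran from 663 ± 143 CPM per kb for Atp6v0c down to 30.3 ± 0.745 for Atp6v1d, a stalk subunit. The alternative d subunit Atp6v0d2 (266 ± 21.7 CPM per kb), known from osteoclasts and other macrophage-lineage cells, was above the widely expressed Atp6v0d1 (134 ± 4.85). All members together held 4.13% ± 0.0447 of counts in untreated libraries. Such shares are of counts before TMM scaling, unlike the CPM.

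With the isotype control, 19 of 39 members were higher than in untreated cells at 12 h and at 24 h. At 4 h, 9 members were higher than in untreated cells and 2 were lower, at 12 h 19 were higher and 2 lower, and at 24 h 19 were higher and 0 lower (1 lower at an unadjusted p under 0.05, and 1 by DESeq2). A member was called at an edgeR quasi-likelihood p, adjusted by Benjamini-Hochberg over all genes tested, under 0.05. The background is high: 35.6% of all genes were called at 4 h (20.4% higher, 15.2% lower), 41.6% at 12 h (22% higher, 19.6% lower) and 42.2% at 24 h (21.3% higher, 20.9% lower). At 4 h the members' share was thus near that of all genes. The median log2 fold change of the members was 0.10, 0.30 and 0.30 at the 3 times, beside −0.00, 0.03 and −0.04 over all genes tested. These 3 comparisons share the untreated libraries. In CPM per library, all 3 isotype libraries were above all 3 untreated ones for 26 members at 12 h, and all were below for 3, where 61.8% of all genes did not overlap (32.5% above, 29.3% below). After GC correction 18 members were called at 4 h, with 45.6% of all genes. Members together held 3.86% ± 0.394 of counts after 4 h of isotype, 4.96% ± 0.1 after 12 h and 5.71% ± 0.0452 after 24 h. Psap, Ctsd and Ctsb weigh heavily in this share, so it says little about the other members. Mean levels in untreated and isotype 24 h libraries were 14004 and 12943 CPM for Psap, 5044 and 10936 for Ctsd and 3701 and 8572 for Ctsb.

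Ctsk, a protease best known for cutting bone collagen in osteoclasts (ENSMUSG00000028111.4, chromosome 3, 95499256 to 95509362), had the largest fold change of the members at 24 h. At 4 h that of Lipa was larger, and at 12 h that of Gaa. The level of Ctsk was 78.7, 72.3 and 76 CPM in the untreated libraries, 143, 149 and 147 in the isotype libraries of 4 h, 174, 185 and 237 in those of 12 h and 248, 269.8 and 344 in those of 24 h. No isotype library overlapped the untreated ones, and the fold changes were 0.95, 1.39 and 1.92 on the log2 scale (edgeR adjusted p 1.73e-05, 1.41e-07 and 2.75e-09). Ctsb rose as well, from 3402, 3916 and 3786 CPM untreated to 8716, 8319 and 8682 at 24 h, with differences of 0.49, 0.92 and 1.21 at the 3 times. Lipa, the acid lipase that frees cholesterol from its esters (ENSMUSG00000024781.15, chromosome 19, 34492318 to 34527474), was already raised at 4 h, from 710.1, 791 and 752 CPM to 1942, 2036 and 1607, and stayed there, with differences of 1.31, 1.20 and 1.24. Gusb, the glycan hydrolase beta-glucuronidase, rose step by step, by 0.30, 0.83 and 1.31, and so did Npc2, which hands cholesterol to the exporter Npc1, by 0.50, 1.10 and 1.26. These 15 differences were all called. The call of Gusb at 4 h was lost without a filter (edgeR adjusted p 0.146) and with only the libraries compared (0.0871), and that of Npc2 at 4 h with only the libraries compared (0.0527). Ctsl and Ctsd rose late: Ctsl was at 594, 713 and 676 CPM untreated, 569, 589 and 631 with isotype at 12 h and 1498, 1540.5 and 1538 at 24 h, so that its libraries overlapped at 12 h and stood far apart at 24 h (a difference of 1.21 in log2 units (SE 0.0816; edgeR, adjusted p 1.96e-09)). Ctsd differed at 12 h by 0.49 and at 24 h by 1.12, both called.

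By role, at 24 h, 6 of 8 cathepsins, 4 of 8 glycan and lipid hydrolases, 2 of 5 lipid transfer and cofactor genes, 3 of 5 membrane proteins and 4 of 6 cytosolic pump subunits were higher, and 0 of 5 membrane subunits of the pump (edgeR; 1 of 5 at an unadjusted p under 0.05 and 1 by DESeq2). The medians were 0.97, 0.57, 0.34, 0.30, 0.26 and 0.03 in that order. Of all genes, 21.3% were higher at 24 h, and 0 of 5 is not far from that share. The 2 sectors of the pump were not tested against each other. In the cytosolic sector, Atp6v1a, the ATP-splitting subunit A, rose by 0.51, 0.62 and 0.77. The members lower than in untreated cells were Man2b1 and Atp6v0d1 at 4 h (−0.40 and −0.28) and Ctsc and Atp6v0d2 at 12 h (−0.35 and −0.42). The call of Ctsc was lost without any 1 of the 6 libraries compared (adjusted p 0.0715 to 0.153 over the alternatives that ended it), that of Atp6v0d2 without any of them but untreated replicate 1 (0.0653 to 0.116), that of Man2b1 without any but isotype 4 h replicate 3 (0.069 to 0.13) and that of Atp6v0d1 after GC correction (0.146). Gaa was called only at 12 h, by 1.49, and this call was lost without untreated replicate 2 (edgeR adjusted p 0.0539).

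**Figure D1:**
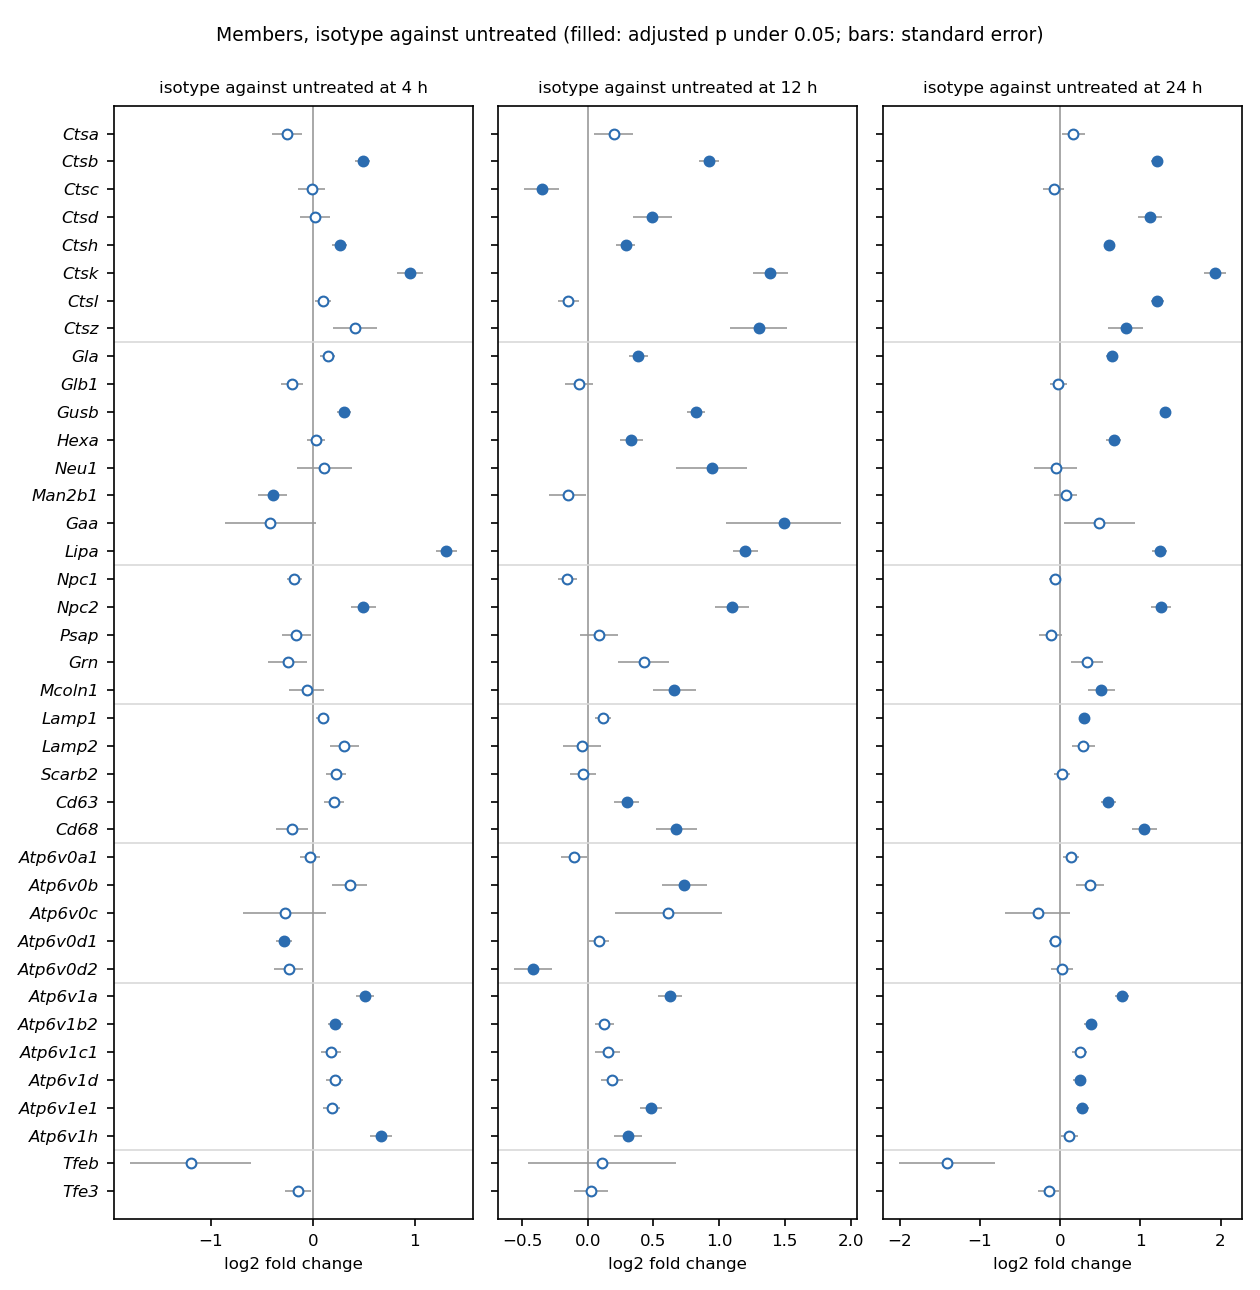
Log2 fold change of each member in isotype libraries against untreated libraries at 4, 12 and 24 h (x axis; bars are standard errors, filled points are called), with members on the y axis grouped by role. Filled points to the right of 0 increase from 9 at 4 h to 19 at 12 h and 24 h, and Ctsk has the highest value at 24 h.

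FcMR lowered more members than it raised at 24 h. Of the 39, 16 were lower and 3 higher than with the isotype control, where 9.44% of all genes were lower and 11.4% higher (20.9% called in all), and the members' median log2 fold change was −0.26, beside 0.01 over all genes tested. At 12 h, 9 were lower and 3 higher (background 7.49% and 8.61%, 16.1% in all), with a median of −0.17 beside −0.02. At 4 h, 6 were lower and 1 higher (background 9.13% and 8.62%, 17.7% in all), with a median of 0.03 beside −0.07. With FcMR, members held 3.48% ± 0.045 of counts after 4 h, 4.01% ± 0.284 after 12 h and 4.2% ± 0.473 after 24 h, and the last of these lay near that of untreated cells. These shares are taken before TMM scaling, unlike the CPM and fold changes. TMM factors were 0.8462, 0.8324 and 0.8521 in FcMR libraries of 4 h and 1.004, 1.004 and 0.9423 in the isotype ones. The lower share with FcMR at 4 h therefore does not show lower levels in CPM. Without overlap between the groups, 20 members were lower and 4 higher at 24 h, 18 and 4 at 12 h and 7 and 4 at 4 h, where 34.4%, 35.4% and 29.7% of all genes did not overlap. Of all genes, 16.6% were lower and 17.8% higher in this way at 24 h, 17.9% and 17.5% at 12 h and 16.2% and 13.5% at 4 h.

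Of the 19 calls of 24 h, 12 kept their call under each of 17 alternatives of scaling, filter, tool, GC correction, block and omitted libraries, and all 12 were lower: Ctsb, Ctsd, Ctsl, Gusb, Hexa, Man2b1, Lipa, Npc1, Cd63, Atp6v0a1, Atp6v0d2 and Atp6v1b2. At 12 h 8 of 12 held, and at 4 h 0 of 7. At 4 h the balance of higher and lower calls changed between alternatives: RLE factors gave 3 higher and 3 lower, the fit without a filter 3 and 0, DESeq2 4 and 4, the authors' normalized values 3 and 2, GC correction 6 and 8, and the fit of the 6 libraries compared called 0 members. In that last edgeR fit 8 members had an unadjusted p under 0.05. Without a filter the median over the genes tested moved at 4 h by 0.119 on the log2 scale, and that of the members from 0.03 to 0.15. After GC correction 14, 18 and 29 members were called at 4, 12 and 24 h, with 29.7%, 26.0% and 30.7% of all genes.

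**Figure D2:**
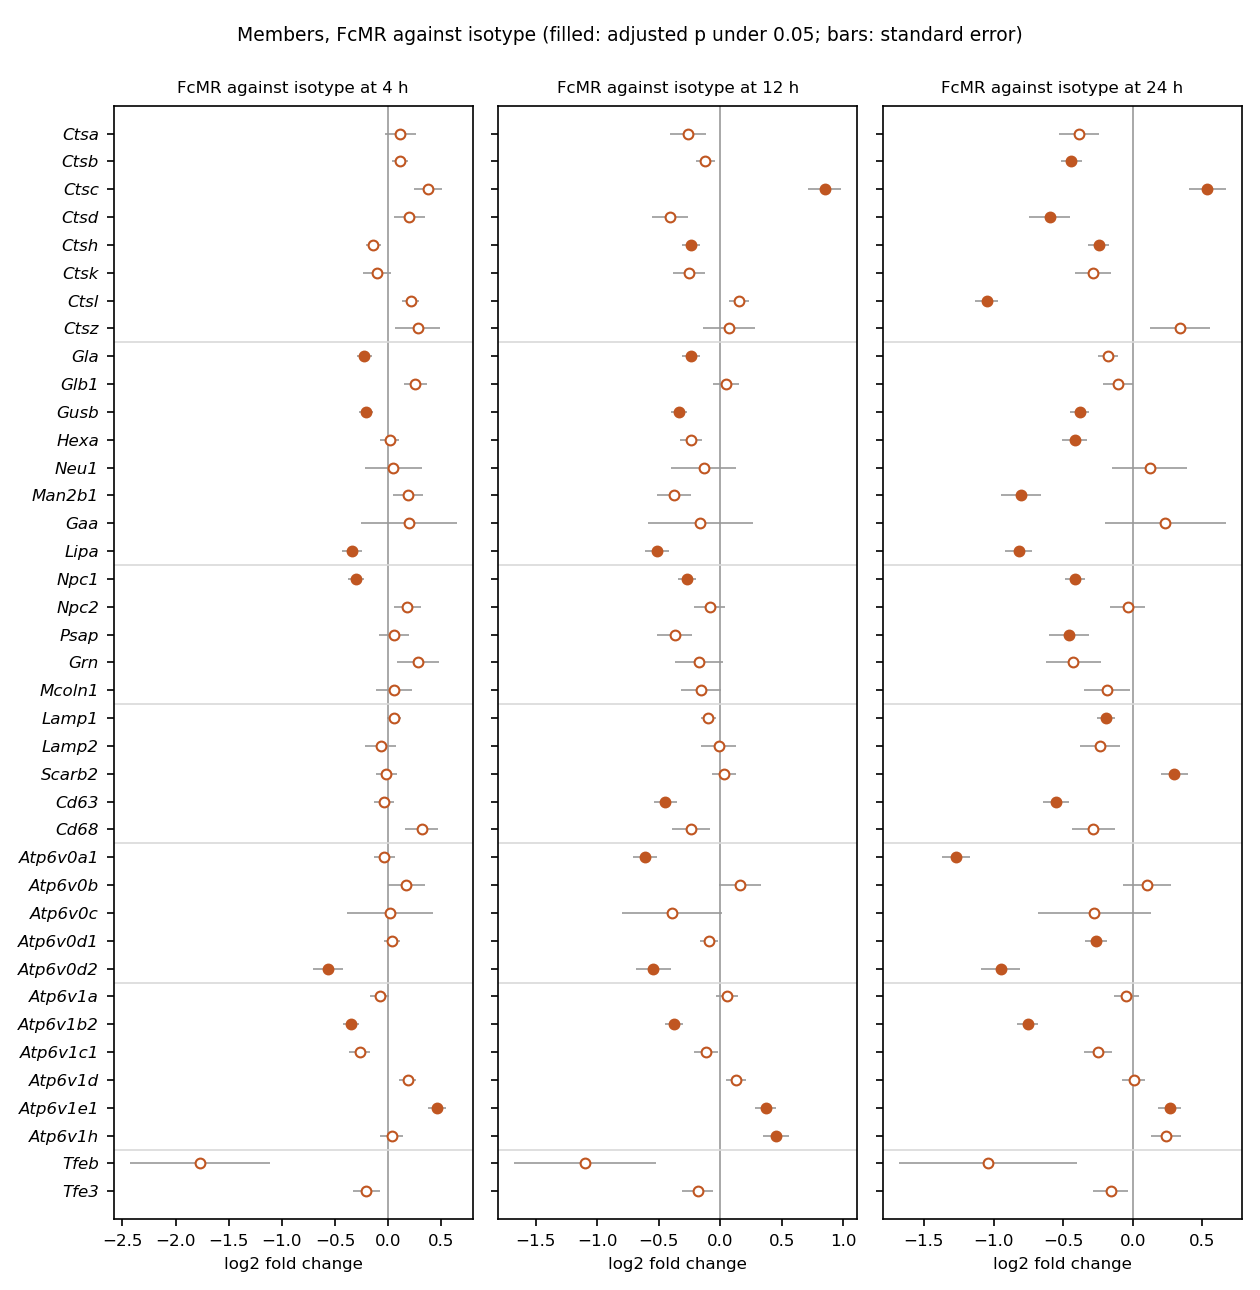
Log2 fold change of each member in FcMR libraries against isotype libraries of the same time (x axis; bars are standard errors, filled points are called; the 3 panels have their own x scale), with members on the y axis grouped by role. At 24 h 16 filled points lie left of 0 and 3 right of it, and Atp6v0a1 and Ctsl lie farthest left.

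Among the cathepsins, 0 of 8 were called by edgeR at 4 h (2 higher at an unadjusted p under 0.05, and 2 by DESeq2), 1 was higher and 1 lower at 12 h, and 1 was higher and 4 lower at 24 h. The largest difference was that of Ctsl (ENSMUSG00000021477.9, chromosome 13, 64359337 to 64370890). Its level with FcMR was 742, 889 and 830.5 CPM at 4 h, 683, 645 and 662 at 12 h and 732, 752 and 725 at 24 h, and with isotype 748, 719 and 657, 569, 589 and 631 and 1498, 1540.5 and 1538. The isotype libraries of 24 h were far above all the others, and the FcMR libraries of 12 h lay below those of 4 h and 24 h. At 24 h this was a difference of −1.05 in log2 units (SE 0.0813; edgeR, adjusted p 3.66e-08), and no library of one group came near the other. At 4 h the difference of 0.21 was not called, but it was called as higher with RLE factors, without a filter, with DESeq2, with the authors' normalized values, after GC correction and without FcMR 4 h replicate 1.

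Ctsb (ENSMUSG00000021939.8, chromosome 14, 63122462 to 63145923) was at 6589, 5813 and 6531 CPM with FcMR and 8716, 8319 and 8682 with isotype at 24 h, again with all FcMR libraries below all isotype libraries (a difference of −0.44 in log2 units (SE 0.0756; edgeR, adjusted p 0.000304)). At 4 and 12 h its differences of 0.11 and −0.12 were not called. Ctsd (ENSMUSG00000007891.16, chromosome 7, 142375911 to 142388038), the most abundant cathepsin, was at 7374, 5450.1 and 8861 CPM with FcMR and 11311, 10689 and 10808 with isotype, a difference of −0.60 in log2 units (SE 0.146; edgeR, adjusted p 0.00624). The FcMR libraries of Ctsd spread widely, and their order follows the GC tilt of those libraries, yet the highest was below the lowest isotype library. With GC correction the difference was −0.51. Ctsh, a protease that trims peptides from their amino end, was lower, with a log2 change of −0.24 at 12 h and −0.24 at 24 h, small changes whose calls were lost in 10 and 8 of 17 alternatives, at 12 h without any 1 library but FcMR 12 h replicate 1 (adjusted p 0.0986 to 0.182) and at 24 h without any of the 6 (0.0541 to 0.157).

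Ctsc, which encodes the peptidase that activates serine proteases of granules (ENSMUSG00000030560.17, chromosome 7, 88278085 to 88310888), went the other way. With FcMR it was at 800.5, 689 and 676 CPM at 4 h, 918, 731 and 732 at 12 h and 747, 914 and 649.9 at 24 h, and with isotype at 536, 673 and 466, 455, 431 and 437 and 558, 517 and 522. The groups did not overlap at any of the 3 times. The difference was 0.37 at 4 h, which was not called (edgeR adjusted p 0.0617) but was called in 8 of 17 alternatives, 0.85 at 12 h (SE 0.133, edgeR adjusted p 0.000171) and 0.53 at 24 h (SE 0.132, edgeR adjusted p 0.00688). Without FcMR 24 h replicate 2, the highest of its group, the last was 0.40 with an adjusted p of 0.058. Ctsk, highest in fold change with the isotype control at 24 h, did not pass the test with FcMR, with differences of −0.10, −0.25 and −0.29. For Ctsa the differences were 0.11, −0.27 and −0.39 and for Ctsz 0.28, 0.07 and 0.34, none of them called. Ctsz was called as higher at 12 and 24 h after GC correction (0.28 and 0.50), while Ctsa was called as lower at 24 h (−0.27).

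Of the 8 glycan and lipid hydrolases, 0 were called as higher at any of the 3 times by edgeR (at an unadjusted p under 0.05 and by DESeq2, 1 at 4 h and 0 at 12 and 24 h), while 3 were lower at 4 h, 3 at 12 h and 4 at 24 h. Among all genes, 8.62%, 8.61% and 11.4% were higher, to which 0 of 8 is near, and 9.13%, 7.49% and 9.44% were lower. Lipa was at 1532, 1424 and 1456 CPM with FcMR and 1942, 2036 and 1607 with isotype at 4 h, at 1342, 1128 and 1160.3 and 1654, 1723 and 1807 at 12 h, and at 993, 1119.6 and 893 and 1761, 1784 and 1766 at 24 h. All FcMR libraries were below all isotype libraries at each time, while both stood above the untreated libraries. The log2 fold changes were −0.34, −0.51 and −0.82 (SE 0.097, 0.0971 and 0.0976, edgeR adjusted p 0.0206, 0.000987 and 6.11e-06). The call of 4 h was lost in 10 of 17 alternatives, without any 1 library but isotype 4 h replicate 3 among them (adjusted p 0.0526 to 0.183, and 0.282 without a filter), and those of 12 and 24 h in 0.

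Man2b1, a mannosidase that trims glycoprotein glycans (ENSMUSG00000005142.10, chromosome 8, 85083270 to 85098282), was at 235, 187 and 265 CPM with FcMR and 408, 404 and 387 with isotype at 24 h, a difference of −0.80 in log2 units (SE 0.142; edgeR, adjusted p 0.000425), without overlap. At 4 h its libraries overlapped, and the difference was 0.19. Gusb (ENSMUSG00000025534.17, chromosome 5, 129989011 to 130003049) was lower with FcMR than with isotype at all 3 times, with log2 differences of −0.21, −0.34 and −0.38. At 24 h its FcMR libraries held 342, 339 and 352 CPM and the isotype libraries 443, 461 and 439.5, and at 4 h 193, 204 and 179 and 234, 214 and 219.8. The groups did not overlap at either time. The call of 4 h was lost in 11 of 17 alternatives, without any 1 library but FcMR 4 h replicate 2 among them (adjusted p 0.0613 to 0.468, and 0.668 without a filter), and those of 12 and 24 h in 0. Hexa, a subunit of the enzyme that degrades gangliosides, was lower at 24 h, with a log2 change of −0.42 (edgeR adjusted p 0.0022), from 722 ± 22.4 CPM with isotype to 541 ± 51.9 with FcMR. Gla was lower at 4 and 12 h, with a log2 change of −0.22 and −0.24, with 118, 123 and 118 CPM against 143, 145 and 132 and 149, 136 and 134 against 162, 166 and 168. Both calls of Gla were lost in 10 and 9 of 17 alternatives, without any 1 library but isotype 4 h replicate 3 at 4 h (edgeR adjusted p 0.115 to 0.34) or FcMR 12 h replicate 1 at 12 h (0.0732 to 0.132) among them. At 24 h its difference of −0.18 was not called. The differences of Glb1, the beta-galactosidase (0.25, 0.05 and −0.11), of the sialidase gene Neu1 (0.05, −0.13 and 0.12) and of Gaa (0.19, −0.16 and 0.23) were not called at any time.

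In the group of lipid transfer, cofactors and channel, 1 of 5 was lower at 4 h, 1 at 12 h and 2 at 24 h, and 0 were higher (edgeR; also 0 at an unadjusted p under 0.05 and by DESeq2). With 9.13%, 7.49% and 9.44% of all genes lower and 8.62%, 8.61% and 11.4% higher, 0 or 1 of 5 is near the background. Npc1, the membrane protein that exports cholesterol (ENSMUSG00000024413.13, chromosome 18, 12189692 to 12236400), was lower at each time, with a log2 change of −0.30, −0.27 and −0.42 (SE 0.0724, 0.072 and 0.0722). Its level at 24 h was 180.2, 183 and 193 CPM with FcMR and 256, 239.8 and 247 with isotype, without overlap (edgeR adjusted p 0.000336). The calls of 4 and 12 h were lost in 6 and 5 of 17 alternatives, among them the omission of FcMR 4 h replicates 2 or 3, isotype 4 h replicate 2, FcMR 12 h replicates 1 or 2 and isotype 12 h replicate 1 (adjusted p up to 0.27). Its partner Npc2 showed no called difference, with 0.18, −0.09 and −0.04, and the FcMR libraries of 24 h at 1724, 1553 and 1915 CPM lay on both sides of the isotype libraries at 1691, 1776 and 1856. The standard error of that last difference was 0.126. Whether FcMR acted differently on the partners was not tested.

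Psap was lower at 24 h, at 9596, 7964 and 10755 CPM with FcMR and 12975, 12774 and 13079 with isotype, a difference of −0.46 in log2 units (SE 0.143; edgeR, adjusted p 0.0298). The 2 groups did not overlap, but the call was lost without FcMR 24 h replicates 1 or 2 or any isotype library of 24 h (adjusted p 0.0631 to 0.129). After GC correction it was −0.37 with an edgeR adjusted p of 3.61e-07. Grn, the precursor of granulins, and Mcoln1 were not called at any time, with differences of 0.28, −0.17 and −0.43 and 0.06, −0.16 and −0.19. For Grn a difference of −0.34 was called at 24 h after GC correction.

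Among the membrane proteins, 0 of 5 were called by edgeR at 4 h (also 0 at an unadjusted p under 0.05 and by DESeq2), 1 was lower at 12 h, and 2 were lower and 1 higher at 24 h. In either direction, 17.7%, 16.1% and 20.9% of all genes were called at the 3 times, and 0 or 1 of 5 is near these shares. Cd63 (ENSMUSG00000025351.14, chromosome 10, 128900989 to 128912822) was at 692, 718 and 764 CPM with FcMR and 908, 956 and 1103 with isotype at 12 h and at 789, 813 and 899.5 and 1171, 1213 and 1287 at 24 h. All FcMR libraries lay below all isotype libraries at both times, with log2 fold changes of −0.45 and −0.55 (SE 0.0947 and 0.0948, edgeR adjusted p 0.00253 and 0.000307). Estimated counts can move reads between Cd63 and its annotated pseudogene, which had 0 to 27 counts per library. Lamp1, among the least variable members, was lower, with a log2 change of −0.19 at 24 h (1300.3, 1254 and 1346 against 1502, 1495 and 1458 CPM, edgeR adjusted p 0.0351). That call was lost in 7 of 17 alternatives, without any 1 library but FcMR 24 h replicate 3 among them (adjusted p 0.0748 to 0.135, and 0.238 without a filter). Scarb2, the membrane protein that carries glucocerebrosidase to lysosomes, was higher by 0.30 at 24 h, at 225, 249.5 and 197 against 192, 173 and 181 CPM, and lost its call in 9 of 17 alternatives, without any 1 library but FcMR 24 h replicate 3 among them (adjusted p 0.0555 to 0.206). Lamp2 (−0.07, −0.02 and −0.23) and Cd68, a heavily glycosylated protein of macrophage endosomes (0.32, −0.24 and −0.28), were not called.

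In the proton pump, 1 of 5 membrane subunits was lower at 4 h, 2 at 12 h and 3 at 24 h, and 0 were higher (edgeR; also 0 at an unadjusted p under 0.05 and by DESeq2). Of 6 cytosolic subunits, 1 was lower and 1 higher at 4 h, 1 lower and 2 higher at 12 h, and 1 lower and 1 higher at 24 h. Beside these stand shares of all genes of 9.13%, 7.49% and 9.44% lower and 8.62%, 8.61% and 11.4% higher. Of 5 or 6 genes, 0 or 1 call is near such shares. The 2 sectors were not tested against each other. Atp6v0a1, the subunit of the proton channel that also steers the pump to its membrane (ENSMUSG00000019302.16, chromosome 11, 101009452 to 101063719), fell furthest of all 39 members at 24 h. It was at 249.9, 249 and 212 CPM with FcMR and 219, 233 and 278 with isotype at 4 h, at 132, 164 and 156 and 242, 240.3 and 209.7 at 12 h, and at 116, 108 and 115 and 281, 269 and 269 at 24 h. The groups overlapped at 4 h only, and by 24 h the FcMR libraries were far below the untreated ones at 257, 241 and 247 CPM. The log2 fold changes were −0.04, −0.61 and −1.27 (SE 0.0988, 0.099 and 0.101), and the edgeR adjusted p was 0.00023 at 12 h and 4.47e-08 at 24 h.

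Atp6v0d2 (ENSMUSG00000028238.6, chromosome 4, 19876841 to 19922605) was lower with FcMR from the first time on, at 420.2, 366 and 374 CPM against 568, 684 and 465 at 4 h, 421, 323 and 296 against 529, 485 and 502 at 12 h and 373, 399 and 294 against 677, 694 and 689 at 24 h. No libraries overlapped at any time. Its log2 fold changes were −0.57, −0.54 and −0.95 (SE 0.143, 0.142 and 0.143, edgeR adjusted p 0.00975, 0.0121 and 8.49e-05). The call of 4 h was lost without FcMR 4 h replicates 2 or 3 or isotype 4 h replicate 2 (adjusted p 0.0635 to 0.097) and that of 12 h without FcMR 12 h replicates 2 or 3 or isotype 12 h replicate 1 (0.0597 to 0.0826). Its counterpart Atp6v0d1 had differences of 0.03, −0.09 and −0.26. At 24 h that gene was at 175, 158 and 189 against 198, 222 and 206 CPM, a called change that was lost in 6 of 17 alternatives (adjusted p up to 0.124), with FcMR 24 h replicates 1 or 2 or isotype 24 h replicates 2 or 3 left out among them. Atp6v0d2 is also listed among genes of osteoclasts and fused macrophages. Of 7 tested markers of those cells, 4 were higher and 2 lower with FcMR than with isotype at 24 h, so the list went both ways. As examples, Acp5, the acid phosphatase of osteoclasts, was higher by 1.46 and Dcstamp, needed for cell fusion, by 0.54, while Ocstamp was lower by 1.19. Nfatc1, Mmp9 and Itgb3 enter these counts without values given here. Oscar and Calcr held at most 0.22 and 1.54 CPM in any library. The part of such cells in the values of Atp6v0d2 was not tested. The differences of Atp6v0b (0.17, 0.16 and 0.10) and Atp6v0c (0.02, −0.40 and −0.28) were not called, and Atp6v0c varied widely between libraries (SE 0.405 at 24 h) and has annotated pseudogenes.

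In the cytosolic sector, Atp6v1b2, the B subunit that forms the ATP-binding ring with subunit A (ENSMUSG00000006273.14, chromosome 8, 69088646 to 69113711), was lower at each time. It was at 534, 540.4 and 474 CPM with FcMR and 862, 888 and 861 with isotype at 24 h, a difference of −0.75 in log2 units (SE 0.0758; edgeR, adjusted p 8.59e-07), and at 607, 619 and 611 and 757, 867 and 715 at 4 h (−0.35). The groups did not overlap at either time. The call of 4 h was lost without FcMR 4 h replicate 3 (adjusted p 0.0763) or isotype 4 h replicate 2 (0.0535), without a filter (0.15) and in the fit of the 6 libraries (0.0973). Atp6v1a, its partner in the ring, was not called at any time (−0.08, 0.06 and −0.05). Its FcMR libraries of 24 h held 539, 594 and 494 CPM and the isotype libraries 569.8, 562 and 550.0. Atp6v1e1, a stalk subunit (ENSMUSG00000019210.10, chromosome 6, 120794305 to 120822793), was higher at each time, at 384, 399.7 and 405 against 292, 255 and 318 CPM at 4 h, 420.2, 472 and 479 against 348, 349 and 367 at 12 h and 354, 354 and 401 against 292, 307 and 325 at 24 h. All FcMR libraries lay above all isotype libraries at the 3 times, by 0.46, 0.37 and 0.26 on the log2 scale (edgeR adjusted p 0.000761, 0.00395 and 0.0283). The call of 4 h was lost in the fit of the 6 libraries (0.0508), and that of 24 h in 6 of 17 alternatives, GC correction and the omission of FcMR 24 h replicate 3 or isotype 24 h replicates 1 or 2 among them (0.0575 to 0.124). Atp6v1h, a regulatory subunit, was higher at 12 h, at 212, 189 and 191 against 134, 142 and 156 CPM (a difference of 0.45 in log2 units (SE 0.107; edgeR, adjusted p 0.006)), a call that held in 17 of 17 alternatives. At 4 and 24 h its differences of 0.03 and 0.24 were not called. Atp6v1c1 (−0.27, −0.11 and −0.25) and Atp6v1d (0.18, 0.12 and 0.01) were not called.

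**Figure D3:**
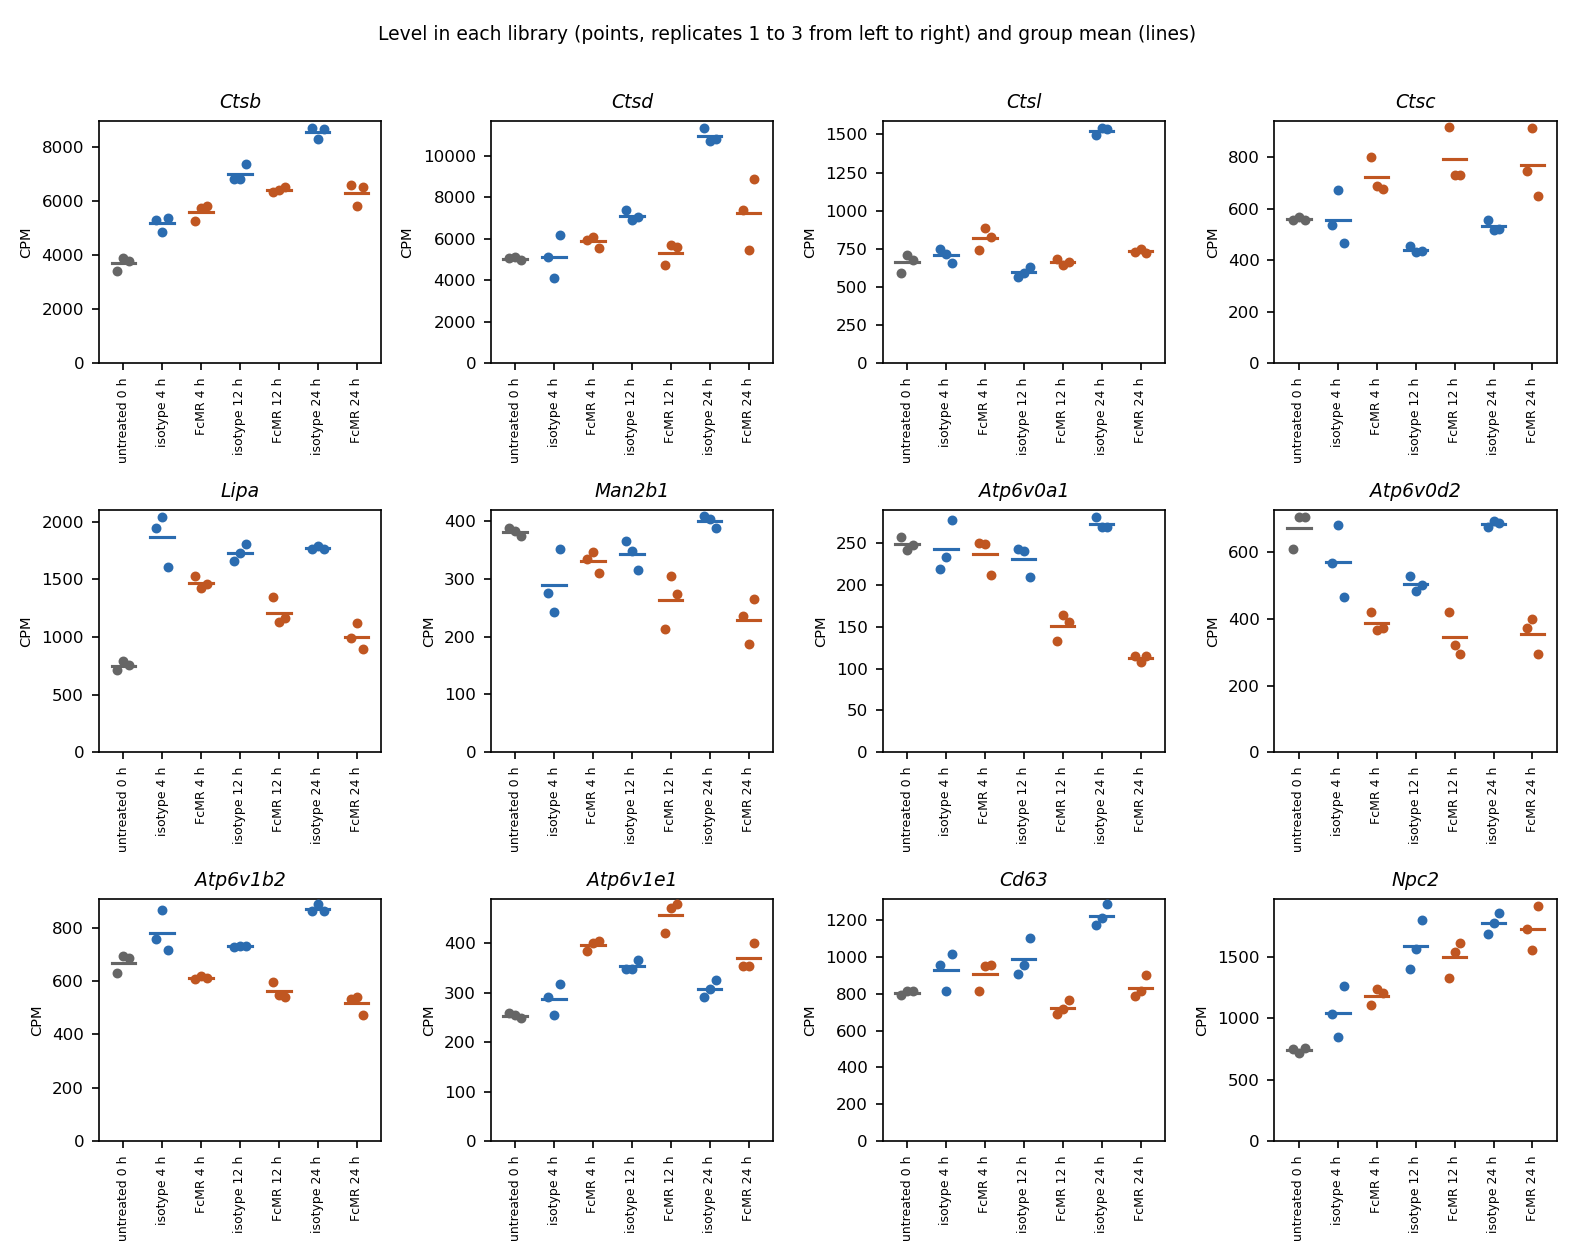
Level of 12 members in each of the 21 libraries (y axis, CPM from 0; points are libraries, lines are means of 3) by group on the x axis, with untreated libraries in grey, isotype in blue and FcMR in orange. At 24 h Ctsl and Ctsb are lower with FcMR than with isotype, Atp6v0a1 and Lipa are lower in FcMR libraries of 24 h than of 4 h, and Ctsc and Atp6v1e1 are higher with FcMR.

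Both transcription factor genes missed the test at each time. Tfeb (ENSMUSG00000023990.18, chromosome 17, 47737030 to 47792419) was at 3.61, 3.5 and 3.54 CPM with FcMR and 6.89, 3.25 and 25 with isotype at 4 h, at 3.74, 19.3 and 18.9 and 23.1, 31 and 35.8 at 12 h, and at 5.55, 2.9 and 7.68 and 12.2, 9.01 and 10.3 at 24 h. The groups overlapped at 4 h but not at 12 and 24 h, when all FcMR libraries were lower. The log2 fold changes were −1.77, −1.10 and −1.04 with wide standard errors of 0.659, 0.574 and 0.639 (edgeR adjusted p 0.0744, 0.242 and 0.301). Tfeb had the highest transcript GC content of the members, 61.4%, and in 5 of the 7 groups its lowest level was in the library of lowest GC tilt. The isotype libraries of 4 h had tilts of −0.823, −1.67 and 0.61, and FcMR 12 h replicate 1, with a tilt of −0.716, was at 3.74 CPM beside 19.3 and 18.9 CPM. In the other 2 groups it was not: the isotype 24 h library of lowest tilt (−0.096) had the highest level, and the FcMR 4 h library of highest tilt (−0.157) the lowest. After GC correction Tfeb was called as lower at the 3 times, with a log2 change of −1.63, −0.91 and −0.77 (edgeR adjusted p 0.000206, 0.00319 and 0.031). Tfe3 had differences of −0.20, −0.18 and −0.16, with 83.6, 71.5 and 93.6 CPM against 89.8, 94.7 and 92.7 at 24 h, and overlapping groups at that time.

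**Figure D4:**
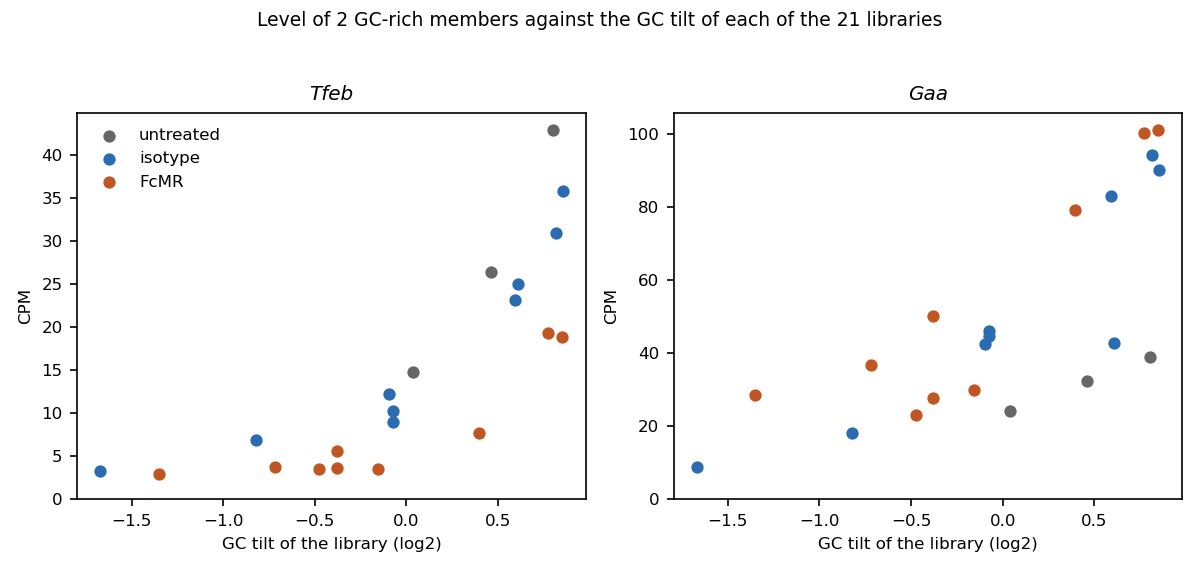
CPM of Tfeb and Gaa (y axes from 0) against the GC tilt of each of the 21 libraries (x axis, log2), with untreated libraries in grey, isotype in blue and FcMR in orange. In the isotype 4 h, FcMR 12 h and FcMR 24 h groups, the library with the lowest tilt is the lowest for both genes.

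Spread within groups went with GC content over the members. Spearman's rho between transcript GC content and the mean within-group coefficient of variation was 0.528 over 39 genes of the same libraries, given as a description. The 10 members richest in GC (at least 55.6%) had a median coefficient of variation of 14.8% and the 10 poorest (at most 46.7%) one of 6.97%. At 24 h GC correction raised the calls from 19 to 29, with 24 lower and 5 higher. Among those then called as higher were Ctsz (0.50), Neu1 (0.26) and Gaa (0.38), and among those lower Lamp2 (−0.37), Gla (−0.27), Atp6v1c1 (−0.34) and Ctsk (−0.35). These genes were chosen for naming after their values were seen.

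**Figure D5:**
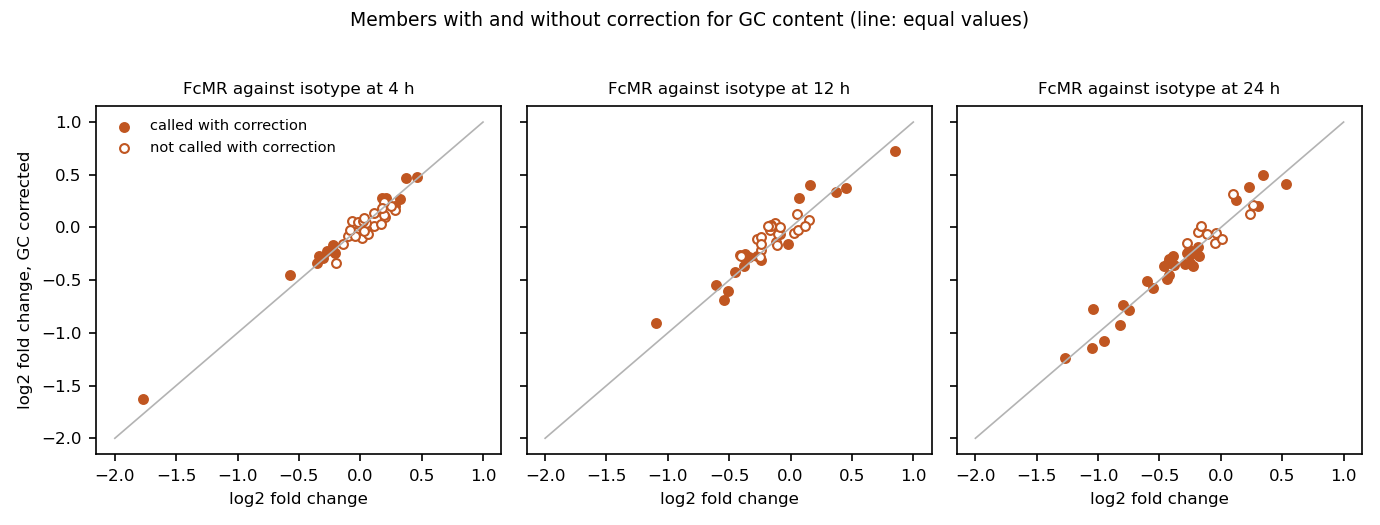
Log2 fold change of each member with GC correction (y axis) against that without it (x axis) for FcMR against isotype at 4, 12 and 24 h, with filled points called after correction and a line of equal values. Points stay close to the line, and 14, 18 and 29 of 39 are filled at the 3 times.

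The effect of FcMR changed over time for 7 members by a joint edgeR test over the 3 times, where 11% of all genes were called and 4.78% were called with an effect lower at 24 h than at 4 h. All 7 went that way. The difference of the log2 effects, 24 h minus 4 h, was −1.26 for Ctsl (adjusted p 1.42e-06), −1.24 for Atp6v0a1 (5.72e-05), −0.56 for Ctsb (0.00643), −0.99 for Man2b1 (0.00923), −0.41 for Atp6v1b2 (0.0253), −0.52 for Cd63 (0.0328) and −0.79 for Ctsd (0.0349). The first 4 held in 29 of 29 alternatives, while Atp6v1b2 lost its call without any 1 library of the 3 times but isotype 4 h replicates 2 and 3 and FcMR 24 h replicate 2 (adjusted p 0.0522 to 0.105). Ctsd lost it without FcMR 4 h replicates 1 or 2, isotype 4 h replicates 1 or 2 or isotype 24 h replicate 1 (0.0586 to 0.0836), and Cd63 without FcMR 4 h replicate 2 (0.0983) or isotype 4 h replicate 2 (0.0711). Over the 3 times, Ctsl ran from 645 to 889 CPM in FcMR libraries, and from 1498 to 1540.5 in isotype libraries of 24 h. Atp6v0a1 ran from 209.7 to 281 CPM in isotype libraries of the 3 times and from 108 to 164 in FcMR libraries of 12 and 24 h. Changes between times within a treatment were not tested. For Lipa, Gusb, Npc1 and Atp6v0d2, lower at each time, the joint test was not passed (edgeR adjusted p 0.0674, 0.467, 0.602 and 0.306), which does not show that their effect was constant. The comparisons of FcMR with isotype at the 3 times share no library. Of the 12 members called at 12 h, 10 were also called at 24 h (83.3% of 12 and 52.6% of 19), all 10 in the same direction. The like share over all genes was not worked out, so this overlap has no background beside it. The same 6 members were called at all 3 times: Gusb, Lipa, Npc1, Atp6v0d2 and Atp6v1b2 as lower and Atp6v1e1 as higher. Of the 7 calls of 4 h, however, 0 held under every alternative. In all, 18 members were called at none of the 3 times.

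Genes of the same pathway outside the 39 members were counted in lists chosen by function. Of all genes tested, 9.13% were lower and 8.62% higher with FcMR at 4 h, 7.49% and 8.61% at 12 h and 9.44% and 11.4% at 24 h. Of 30 other lysosomal hydrolases, 5 were lower and 1 higher at 4 h, 7 and 1 at 12 h and 10 and 1 at 24 h. Lgmn, the asparaginyl protease legumain that cuts cathepsins into their mature forms, was the lowest at 24 h, with isotype libraries at 627 ± 20.3 CPM and FcMR libraries at 186 ± 16.1, or −1.76 (SE 0.0852; edgeR, adjusted p 1.39e-10) in log2 units. Acp2, an acid phosphatase, was the 1 higher gene at 24 h, by 0.76 (SE 0.0551; edgeR, adjusted p 1.73e-08). Among 12 tested other pump subunits and accessory proteins, 2, 3 and 3 were called by edgeR as lower at the 3 times and 0 as higher (also 0 at an unadjusted p under 0.05 and by DESeq2). Of so few genes, such counts are near the share of all genes called in either direction, 17.7%, 16.1% and 20.9% at the 3 times. The lower ones included Dmxl2 and Wdr7, which form a complex that promotes pump assembly. Both were lower at each time, with Dmxl2 at −0.60, −0.45 and −0.50 and Wdr7 at −0.44, −0.27 and −0.24.

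Of 11 genes that tag hydrolases with mannose 6-phosphate or sort them, 0 were called by edgeR at 4 h (also 0 at an unadjusted p under 0.05 and by DESeq2), 2 were lower at 12 h, and 2 were lower and 3 higher at 24 h. Of the receptors for the tag at 24 h, M6pr was higher with FcMR than with isotype, at 882 ± 81.1 against 600 ± 23.4 CPM. The log2 difference was 0.56 (SE 0.078; edgeR, adjusted p 4.04e-05). Igf2r, which also clears IGF2, was lower, at 195 ± 17.3 against 277 ± 5.34 CPM, a difference of −0.50 (SE 0.0804; edgeR, adjusted p 0.00015). Whether FcMR acted differently on the 2 receptors was not tested. Of 22 tested other lysosomal membrane proteins, 6 were lower and 2 higher at 4 h, 8 and 4 at 12 h and 7 and 2 at 24 h (1 lower and 2 higher at 4 h without a filter), the extremes at 24 h being the channel genes Mcoln2 (1.32 (SE 0.106; edgeR, adjusted p 5.55e-08)) and Tpcn1 (−1.72 (SE 0.234; edgeR, adjusted p 2.9e-05)). Of 19 tested genes of the MiT/TFE factors and of lysosomal mTORC1 signalling, 3 were lower and 1 higher at each time. Both directions together, this is near the share of all genes called, 17.7%, 16.1% and 20.9% at the 3 times. At 4 h the balance of lower and higher calls turned with RLE factors (1 lower, 4 higher), DESeq2 (0 and 4), the authors' normalized values (1 and 2), no filter (0 and 3) and GC correction (4 and 5). At 24 h Fnip2, a partner of folliculin in nutrient sensing, was at −1.25 (SE 0.0692; edgeR, adjusted p 6.13e-10), and at 4 h Tfec, a relative of Tfeb, was higher by 0.56 (SE 0.0798; edgeR, adjusted p 8.91e-05). Of 22 autophagy genes, 3 were lower and 2 higher at 4 h, 1 and 1 at 12 h and 2 and 4 at 24 h, which at 4 h is near the share of all genes and turned with DESeq2 (2 lower, 3 higher). At 24 h the cargo receptor gene Sqstm1 was at 1.04 (SE 0.2; edgeR, adjusted p 0.000869) and Atg7, an enzyme of autophagosome formation, at −0.67 (SE 0.179; edgeR, adjusted p 0.011). Of 6 tested cathepsin inhibitors, 1 was higher at each time and 0 lower by edgeR (at an unadjusted p under 0.05, 1 lower at 24 h, and 0 by DESeq2). Cst7, the higher one, encodes cystatin F and was at 18.2 ± 2.5 CPM with isotype at 24 h and at 92.2 ± 10.6 with FcMR, a log2 rise of 2.34 (SE 0.19; edgeR, adjusted p 6.19e-08), after 0.88 and 1.35 at 4 and 12 h. Of 8 macrophage markers, 2 were higher and 4 lower with FcMR at 24 h, when their summed level was 26072 to 27941 CPM with FcMR and 31035 to 35223 with isotype. Most of that sum is Lyz2, with group means of 17926 to 28184 CPM, so it says little about the other markers. Of 6 genes of alveolar-type macrophages, Marco (1.93) and Car4 (1.5) were higher and Siglecf (−2.13), Pparg (−2.24) and Fabp4 (−1.55) lower, and the summed level was 1475 to 1664 CPM with FcMR and 1150.4 to 1518 with isotype. Of 6 dendritic cell genes, Zbtb46 (0.69) and Ccr7 (0.76) were higher and Itgax (−0.22) lower, summing to 2129 to 2690.2 and 2013 to 2193 CPM. The 8 osteoclast and giant cell genes summed to 809.9 to 1251 and 470.4 to 541 CPM. Of 4 mast cell and basophil genes 1 was higher, Kit (1.08), with sums of 22.8 to 27.6 and 12.7 to 16.7 CPM. Of 7 neutrophil and progenitor genes 1 was higher, S100a8 (0.69), with sums of 190.1 to 203 and 147 to 169 CPM and Elane at 0 in the FcMR libraries. The part of these differences in the lower member levels was not tested.

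Of the 39 members, 17 overlap another annotated gene, 14 of them one on the opposite strand, counted over whole gene spans with introns. Whether exons overlap was not tested. No source used here states that counting used strand, so reads from any exon sequence shared by opposite strands may not be told apart.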

How the data were processed

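RNA of 21 libraries (75 bp single-end reads from a TruSeq RNA kit, per the labels' protocols) was analysed from 2 deposited gene tables. The first holds estimated counts, which the authors deposited as whole numbers, so rounding changed none. The second holds normalized values on a linear signal scale, deposited by the authors and used in 1 alternative only. Per the submitters' processing notes, CASAVA 1.8.2, kallisto 0.44.0 and DESeq2 were used with the builds mm10 and GRCm38, with no order or role given, and strand of counting is not given in the sources used here. Such counts share reads out among near-identical genes. Every gene of the table has at least 10 counts over all libraries.

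Gene IDs were matched without version to GENCODE M21 (GRCm38), which gave a symbol for 23187 of 23250 genes, and positions are those of that annotation. One edgeR 4.0.16 quasi-likelihood fit (R 4.3.3) held all 21 libraries with a coefficient per group, TMM scaling and filterByExpr with its minimum of 10 counts, which kept 13468 genes. Calls are at a Benjamini-Hochberg adjusted p under 0.05 over these genes. Levels are CPM after TMM, and errors are SD over 3 libraries or the standard error of the fold change. The range of library totals, 5532225 to 66729533 counts, sets the counting error, and the lowest member count in a library was 18 (Tfeb). GC correction was a loess fit (span 0.5) per library for the 13440 genes with a known GC content. Other alternatives were RLE factors, no filter, a filter on mean counts (10), the test of DESeq2 1.42.0, and limma 3.58.1 with voom or on log2(normalized value + 1), the replicate number as a block, only the libraries compared, and libraries left out. The scripts were tested on simulated data.

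Members and gene lists were chosen with earlier results of these data known. Members named with values in each library are, by a rule set with the lists, the up to 5 called members most raised and most lowered by FcMR at each time, up to 3 each way for isotype, 3 of the joint test and 13 fixed ones. Protein sequences were not analysed here.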

Additional observations from a re-analysis of the deposited data

Results flagged for a closer look

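For 7 members the effect of FcMR against isotype differed between the times, which a joint edgeR test of the 3 times called at an adjusted p under 0.05. The values are the log2 effect at 24 h minus that at 4 h. For Ctsl this was −1.26, from 0.21 to −1.05, and for Atp6v0a1 −1.24, from −0.04 to −1.27. Man2b1 changed by −0.99, from 0.19 to −0.80, and Ctsd by −0.79, from 0.20 to −0.60. For Ctsb the change was −0.56, for Cd63 −0.52 and for Atp6v1b2 −0.41, the last from −0.35 to −0.75. In these 7 genes the effect at 24 h was the lower one. By the same test 11% of all genes were called, and 4.78% were called with the effect lower at 24 h than at 4 h. Ctsl, Atp6v0a1, Ctsb and Man2b1 kept their call in 29 of 29 alternatives, while Ctsd, Cd63 and Atp6v1b2 did not.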

How the results depend on the processing

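Of the members called for FcMR against isotype, main counts of 7, 12 and 19 at 4, 12 and 24 h became 14, 18 and 29 with GC correction and 15, 20 and 31 with GC correction and the replicate block. A change of more than 1.5-fold beside the call left 0, 2 and 7. At 4 h no filter gave 3, the 6 libraries alone 0, and leaving out both libraries that are out of title order (isotype 4 h replicate 3 and FcMR 12 h replicate 1) 16. For isotype against untreated at 4 h the 11 calls became 18 with GC correction, 19 with GC correction and block, 21 without both libraries out of order, 5 with only the libraries compared and 3 with the fold minimum, which also left 12 of 21 at 12 h. The 7 calls over time became 13 with DESeq2, 16 with GC correction, 17 with GC correction and block and 13 without both libraries. Leaving out 1 library at a time gave 2 to 9, 8 to 11 and 13 to 19 calls for FcMR at the 3 times, 8 to 20, 17 to 20 and 17 to 20 for isotype and 4 to 12 over time. At 4 h FcMR calls were 3 without FcMR 4 h replicate 2, 2 without FcMR 4 h replicate 3, 4 without isotype 4 h replicate 1 and 3 without isotype 4 h replicate 2. Without isotype 4 h replicate 3 there were 20 isotype calls at 4 h and 12 over time, and without FcMR 4 h replicate 2 there were 4 over time. With the replicate number as a block, counts were 8, 13 and 21 for FcMR, 12, 21 and 21 for isotype and 8 over time. Same-numbered libraries correlated in their deviations at −0.166 to 0.0271, 0.0457 to 0.199 and −0.000824 to 0.0357 for FcMR at the 3 times, so the numbers were not taken as pairs. No member call reversed its direction. The cause of these shifts was not tested. Depth limits Tfeb most, with 18 counts in isotype 4 h replicate 2.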
